A study of Mus musculus with 3 samples.

Results

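The genes described here are 53 genes whose products act in G2 and mitosis, the closing phases of the cell cycle in which a cell prepares for and carries out division. They were taken as a named list (cyclins, mitotic kinases, kinetochore, chromosome, spindle and cytokinesis genes, with chromatin and nuclear envelope genes often grouped with them). The gene tables of 3 mouse single-cell libraries together list 19946 genes. All 53 members were listed among the 18823 genes of the explant library and the 17851 genes of the postnatal day 0 (P0) library. At postnatal day 14 (P14), 49 of the members were among the 17849 genes listed, and Top2a, Aurkb, Bub1 and Gtse1 were not in that table.

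Each library pooled several retinal samples that had been tagged with lipid-linked oligonucleotides (MULTI-seq) before droplet capture, so that each cell could be assigned to its sample. The explant library came from wild-type CD1 retinas taken at embryonic day 14 and cultured for 6 days with 0, 5, 50 or 500 nM of L-054,264, a small molecule agonist of the somatostatin receptor Sstr2, with 2 samples at each dose. The P0 and P14 libraries came from untreated retinas of mice of mixed C57BL/6 and CD1 background that descended from 1 pair of Sstr2+/- mice of the substrain C57BL/6NCrl, with 1 wild-type (Sstr2+/+), 2 heterozygous (Sstr2+/-) and 2 knockout (Sstr2-/-) samples at each age. The retinas came from littermates, and the genotype was that of the whole animal and not of 1 cell type. How many retinas a sample held is not given in the sources used here, so the p-values below measure only the spread between these samples. The deposited tables held 5607 explant cells, 5706 P0 cells and 3298 P14 cells, with median unique molecular identifiers (UMIs, each standing for 1 captured RNA molecule) per cell of 3925 to 4317, 7259 to 8541 and 3381 to 3730 across the samples of each library. Explant cells had 1001 to 2499 detected genes, whereas P0 cells had up to 7324. The libraries shared 4 to 9 cell barcodes pairwise, and no cell was removed for this.

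The label of the targeted gene could not be checked from its own level. Sstr2 in P0 neurogenic progenitors was at 112 CPM (wild type), 189 and 248 CPM (heterozygous) and 294 and 375 CPM (samples labelled knockout), where CPM is UMIs of a gene per 1000000 UMIs of the summed cells. The level was thus higher, not lower, with each lost allele. UMIs of this kind are read from the 3′ end of a transcript, and which part of Sstr2 the allele lacks is not given in the sources used here, so a transcript of the mutant allele may still be counted. The genotype comparisons below rest on the deposited labels alone.

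In a dividing retinal progenitor, G2 ends when cyclin B and the kinase Cdk1 are switched on, the chromosomes condense, the nuclear envelope opens and the spindle attaches at the kinetochores. The anaphase-promoting complex then marks cyclin B and other proteins for destruction, and cytokinesis separates the daughter cells. Most mitotic transcripts rise in G2 and are lost after division. In the developing retina, primary progenitors divide and keep their progenitor state, neurogenic progenitors are close to or in their terminal divisions, and photoreceptors, amacrine cells and ganglion cells no longer divide.

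Promoters of such genes often carry a cell cycle genes homology region, TTTGAA, through which the DREAM and MuvB complexes act, and CCAAT boxes, to which NF-Y binds. RefSeq promoter windows of 300 bases around the annotated transcription start (mouse build GRCm38.p6) were matched for 47 of the 53 members. TTTGAA stood on either strand in 33 of these members (70.2%) and in 20.2% of all genes with a promoter. CCAAT stood in 36 members (76.6%) and in 41.1% of all genes. Both motifs stood in 26 members (55.3%) against 7.97% of all genes. The related letters TTTAAA, which read the same on both strands, stood in 12 members (25.5%) against 14.9% of all genes. Neighbouring matches were allowed to share bases. The 4 members with both motifs and the highest level in P0 primary progenitors are shown as examples, 5′ to 3′ on the strand of the gene, with every TTTGAA and CCAAT match on either strand (TTCAAA and ATTGG on the reverse strand) in capitals.

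Hmgb2: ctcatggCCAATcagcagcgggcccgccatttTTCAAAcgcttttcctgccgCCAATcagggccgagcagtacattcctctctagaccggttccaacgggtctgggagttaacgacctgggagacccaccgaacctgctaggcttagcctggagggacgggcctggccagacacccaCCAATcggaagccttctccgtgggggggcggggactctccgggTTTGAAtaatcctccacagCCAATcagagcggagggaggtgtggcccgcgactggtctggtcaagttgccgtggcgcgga
Top2a: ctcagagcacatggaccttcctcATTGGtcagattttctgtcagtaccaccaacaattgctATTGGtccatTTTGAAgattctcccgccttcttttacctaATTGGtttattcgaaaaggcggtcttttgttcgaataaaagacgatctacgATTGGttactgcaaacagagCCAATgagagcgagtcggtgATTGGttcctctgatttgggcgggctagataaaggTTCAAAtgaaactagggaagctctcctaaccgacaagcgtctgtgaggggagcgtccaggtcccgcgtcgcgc
Tubb4b: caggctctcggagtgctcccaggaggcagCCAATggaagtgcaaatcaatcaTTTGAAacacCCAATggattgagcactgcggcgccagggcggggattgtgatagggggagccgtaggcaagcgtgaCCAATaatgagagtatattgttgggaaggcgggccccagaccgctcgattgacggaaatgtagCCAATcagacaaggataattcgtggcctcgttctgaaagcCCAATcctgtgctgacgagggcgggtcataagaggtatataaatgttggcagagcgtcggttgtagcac
Cenpf: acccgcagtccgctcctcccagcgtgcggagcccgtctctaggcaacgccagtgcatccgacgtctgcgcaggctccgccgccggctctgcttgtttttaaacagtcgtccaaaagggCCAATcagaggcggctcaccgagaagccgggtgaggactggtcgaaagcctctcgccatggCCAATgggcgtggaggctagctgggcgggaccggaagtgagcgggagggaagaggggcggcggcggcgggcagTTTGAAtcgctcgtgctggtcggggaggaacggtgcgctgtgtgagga

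The window of Hmgb2 (chr8:57511593-57511892, plus strand) held TTTGAA matches that begin 218 and 30 bases before the start and 4 CCAAT matches. The window of Top2a (chr11:99024140-99024439, minus strand) held TTTGAA matches at 179 and 23 bases before the start and 6 CCAAT matches. In Tubb4b (chr2:25224653-25224952, minus strand) the single TTTGAA match lay 198 bases before the start and 5 CCAAT matches surrounded it or followed it. In Cenpf (chr1:189688037-189688336, minus strand) TTTGAA lay just inside the transcribed sequence, and CCAAT lay 132 and 71 bases before the start. A match of letters is a description of the sequence and not of binding. The 53 genes lay on 18 chromosomes, with at most 8 on one.

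The first question was where these genes were expressed. The level of the whole group was taken as the UMIs of all members per 10000 UMIs, summed over the cells of a type in a sample, with cell types as named in the deposited annotation and sums of at least 20 cells. Because those types were clustered from the same cells and genes, differences between types are descriptions without a test. In such sums, fewer cells in G2 and mitosis and less RNA per cell cannot be told apart.

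At P0 the group stood at 147 UMIs per 10000 in primary progenitors (median of 5 samples, range 137 to 154) and at 116 in neurogenic progenitors (range 109 to 120). Photoreceptors had 42.5 (range 30.6 to 53.9) and amacrine cells 16.2 (range 14.2 to 19.6). No sample of one progenitor type overlapped the other or any postmitotic type. Primary progenitors were 49.0% of the P0 cells and held 77.7% of the members' UMIs.

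**Figure D1:**
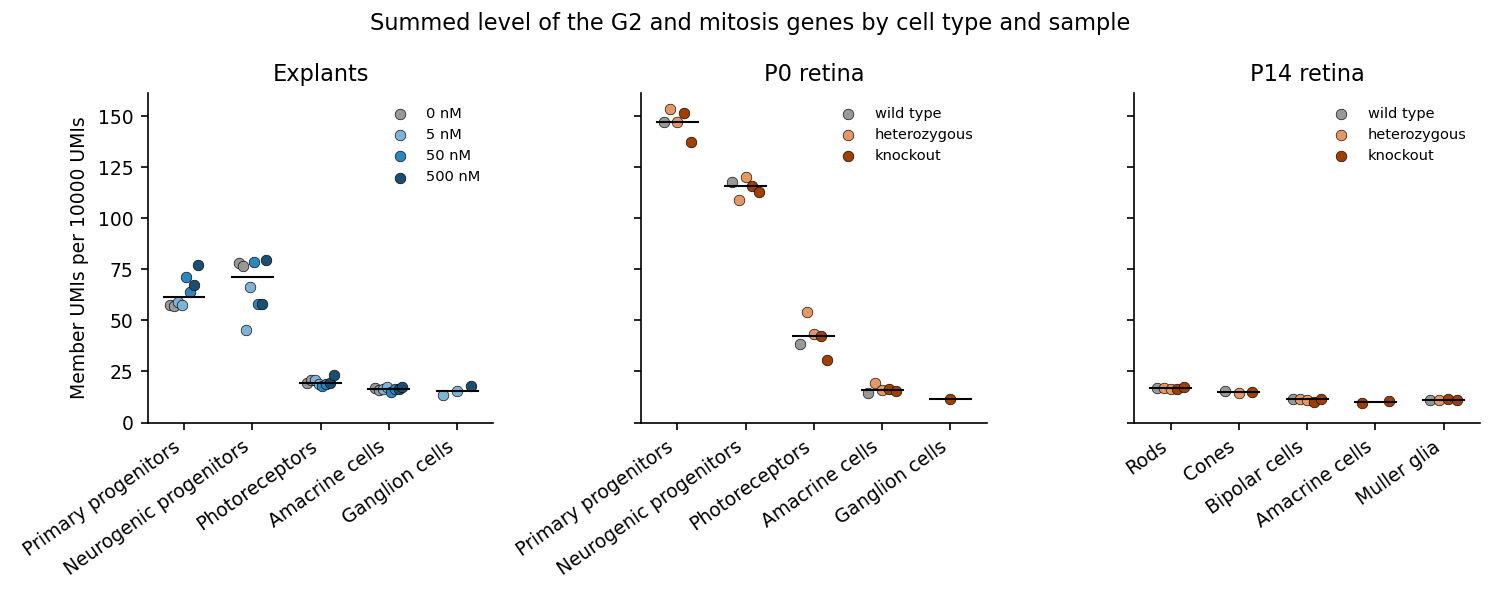
Summed level of the members (UMIs of the listed genes per 10000 UMIs, vertical axis) in each cell type of the explants, the P0 retina and the P14 retina. Each point is 1 sample with at least 20 cells of that type, coloured by agonist dose or genotype, and each line is the median of the samples. P0 primary progenitors lie highest (137 to 154), explant primary and neurogenic progenitors overlap, and all P14 cell types lie at 17.3 or below.

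In the explants the progenitor types were not separated in this way. Primary progenitors had a median of 61.4 UMIs per 10000 (8 samples, range 57.2 to 77.0) and neurogenic progenitors 71.5 (range 45.3 to 79.6). Photoreceptors stood at 19.3 (range 18.1 to 23.1) and amacrine cells at 16.5. Cells labelled ganglion cells stood at 15.4 in the 3 samples with enough cells. The authors state that their explants lack viable ganglion cells, so this label is kept only as deposited. The ranges of the progenitor types overlapped each other and lay clear of the postmitotic types. The lower level in explants than at P0 moved with the cells the tables hold. Only 27.5% of P0 primary progenitors had no more genes than the explant maximum of 2499, and in those cells the P0 level was 56.3 UMIs per 10000 (range 47.0 to 66.5), which overlapped the explants. In neurogenic progenitors under the same limit it was 42.5 (range 31.4 to 46.8). For both progenitor types the P0 median under this limit lay below that of the explants, so the order of the libraries turned. A limit on genes also leaves out cells with much RNA, and is therefore not independent of the level compared.

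At P14 the group was at 16.9 UMIs per 10000 in rods (5 samples, range 16.4 to 17.3), 15.0 in cones, 11.3 in bipolar cells, 11.1 in Muller glia and 10.1 in amacrine cells. Cones were measured in 3 samples, Muller glia in 4 and amacrine cells in 2. Bipolar cells overlapped Muller glia and amacrine cells, and rods lay above every other type.

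A large part of the sum came from few genes, but not most of it. The 5 highest members held 45.7% of the members' UMIs in P0 primary progenitors and 41.9% in explant primary progenitors. Hmgb2, a chromatin protein that bends DNA, gave 24.4% of the members' UMIs in P0 primary progenitors and 21.6% in explant primary progenitors. Its level in P0 primary progenitors was 3661 CPM (wild type), 3656 and 3567 CPM (heterozygous) and 3732 and 3365 CPM (knockout). Top2a, which untangles DNA before chromosome separation, followed with 970 CPM, 994 and 1051 CPM, and 1106 and 918 CPM in the same order of genotypes. The genotypes overlapped for Top2a, and the highest and the lowest Top2a values were both in samples labelled knockout. Tubb4b, a beta tubulin, had 783 to 960 CPM, and Cenpf, a kinetochore protein, 667 to 792 CPM. Ube2c, a ubiquitin-conjugating enzyme that works with the anaphase-promoting complex, had 480 to 632 CPM. Without Hmgb2, Tubb4b, Cbx5, Tmpo and Anp32e, which are not the 5 highest members in these cells, the P0 primary progenitor level was 91.9 UMIs per 10000.

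By role, P0 primary progenitors had 66.1 UMIs per 10000 from the 9 chromosome and chromatin genes, 20.3 from the 12 spindle genes, 14.2 from the 8 genes of entry into mitosis, 14.2 from the 6 kinetochore and centromere genes, and 13.4 from the 8 genes of mitotic kinases, passenger complex and checkpoint. The 3 genes of the anaphase-promoting complex and its substrates gave 9.28, the 3 nuclear envelope genes 6.70 and the 4 cytokinesis genes 2.79. UMIs are not divided by transcript length, since each molecule is counted once at its 3′ end.

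Among the genes of entry into mitosis, Cdk1, the kinase that drives mitosis, stood at 258 CPM (wild type), 265 and 250 CPM (heterozygous) and 255 and 245 CPM (knockout) in P0 primary progenitors. Its partner Ccnb1 stood at 136, 155 and 139, and 126 and 122 CPM in the same order. The second B-type cyclin, Ccnb2, stood at 130, 158 and 128, and 120 and 118 CPM. The samples lay close together for all 3 genes, and for both cyclins the knockout samples were the lowest.

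Cdc20, which activates the anaphase-promoting complex, followed the cyclins with 150 CPM (wild type), 170 and 144 CPM (heterozygous) and 136 and 125 CPM (knockout). Aurkb, the kinase of the chromosomal passenger complex, stood at 166, 158 and 168, and 176 and 153 CPM, and Aurka, the spindle pole kinase, at 45.2, 41.2 and 38.8, and 36.8 and 31.6 CPM. Aurkb lay far above Aurka in every sample. Cenpa, the histone variant that marks centromeres, stood at 286, 330 and 295, and 272 and 280 CPM. Mki67, a coat protein of mitotic chromosomes widely used as a proliferation marker, stood at 436, 413 and 467, and 473 and 411 CPM. Its genotypes overlapped.

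The same genes in P0 neurogenic progenitors spread more, in sums of 116 to 155 cells. Mki67 stood at 258 CPM (wild type), 232 and 316 CPM (heterozygous) and 296 and 239 CPM (knockout), below every primary progenitor sample. Cdk1 had 201, 195 and 203, and 202 and 229 CPM, and Aurkb 115, 74.5 and 88.6, and 106 and 131 CPM. Ctcf had 268, 252 and 287, and 264 and 270 CPM, against 267, 245 and 250, and 254 and 257 CPM in primary progenitors, so that the ranges of the types overlapped although each sample was higher in its neurogenic cells.

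The members were not equally graded between the progenitor types. At P0 the median over samples was highest in primary progenitors for 50 of the 53 members. A member was lower in neurogenic than in primary progenitors in all 5 samples for 39 of 53, with a median ratio over the members of 0.776. The exceptions were Ctcf, an insulator protein with roles beyond mitosis, which was higher in neurogenic progenitors in all 5 samples (ratio 1.04), Hmmr, a spindle protein (ratio 1.07), and Cbx5, a heterochromatin protein, which was highest in the single ganglion cell sum. In explants the median ratio was 1.10, and the median level was highest in neurogenic progenitors for 29 members and in primary progenitors for 21. Only Cks2, a Cdk1 subunit, Nuf2, a kinetochore protein, and the histone chaperone Anp32e were higher in neurogenic progenitors in all 8 explants, and Ccnb2 was lower in all 8. These counts describe the members, and no share of all genes is given beside them.

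Ccnb2 is the clearest case of a member that did not follow the group in explants. In primary progenitors it had 61.1 and 78.7 CPM without agonist and, with increasing dose, 73.3 and 47.5, 70.3 and 66.0, and 61.5 and 72.9 CPM. In neurogenic progenitors of the same explants it had 43.6 and 41.3, 27.5 and 40.5, 38.5 and 37.5, and 39.2 and 55.4 CPM. The other B-type cyclin, Ccnb1, had a median neurogenic to primary ratio of 1.27, against 0.603 for Ccnb2. At P0 these ratios were 0.794 and 0.772. Single explants lay on both sides of equality for Ccnb1, whose neurogenic sums in explants held only 5 to 46 UMIs. Those of Ccnb2 held fewer, 5 to 26 UMIs, so its values are also of low count.

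The group also differed in what remained in photoreceptors. The median photoreceptor to primary progenitor ratio was 0.219 at P0 and 0.157 in explants. At least 0.25 of the progenitor level was kept by 20 members at P0, by 14 in explants and by 13 in both, namely Cks1b, G2e3, Hjurp, Smc4, Hmgb2, Anp32e, Cbx5, Ctcf, Tmpo, Lbr, Rangap1, Ckap5 and Tubb4b. All 3 nuclear envelope genes and 5 of the 9 chromosome and chromatin genes were among them. None of the genes of the anaphase-promoting complex, the mitotic kinases or cytokinesis was. How many of all genes reached this ratio is not given.

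**Figure D2:**
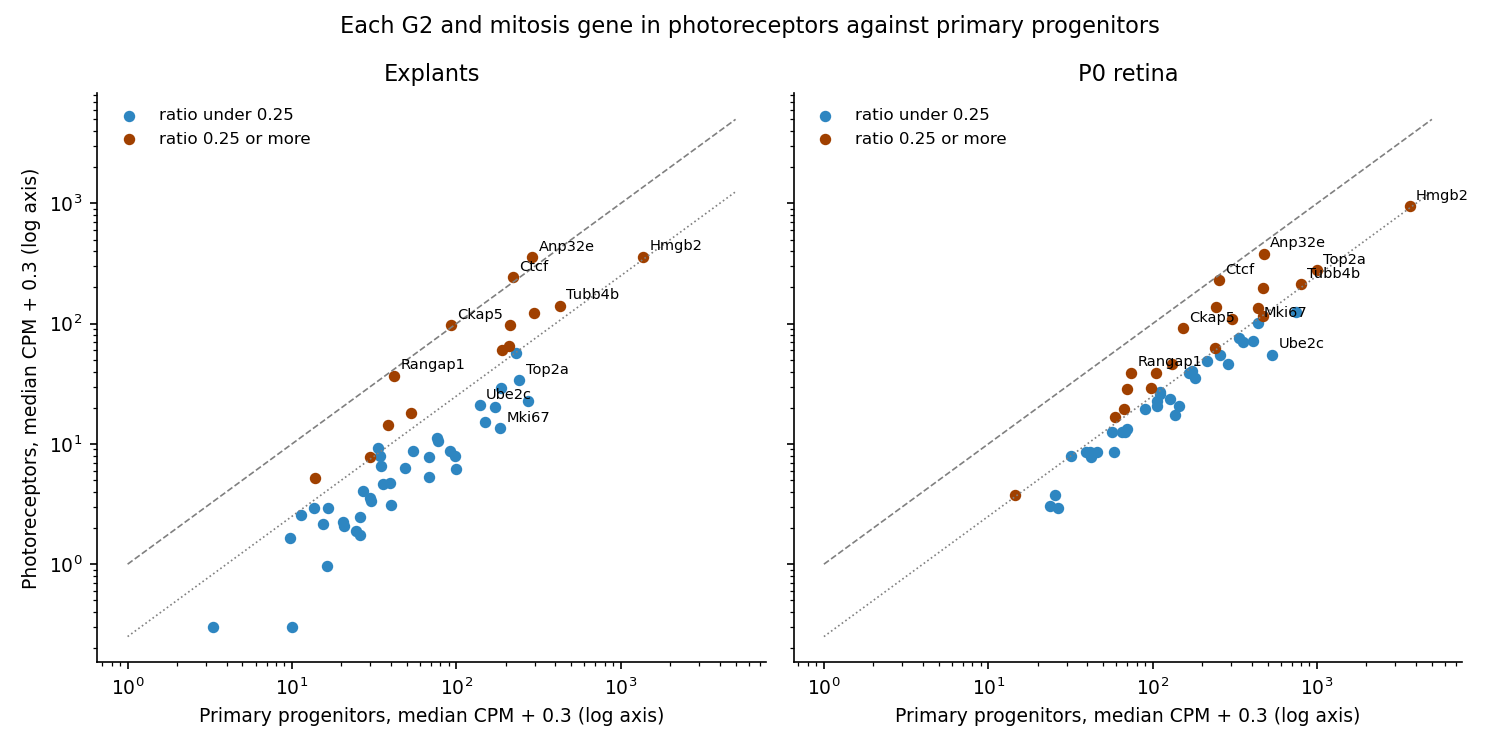
Level of each member in photoreceptors (vertical axis) against primary progenitors (horizontal axis), as the median CPM over samples plus 0.3 on log axes, in explants and at P0. Each point is 1 gene, the dashed line marks equal levels and the dotted line a ratio of 0.25. In explants Anp32e, Ctcf, Ckap5 and Rangap1 lie nearest to equality.

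Anp32e, which removes the histone variant H2A.Z, stood at 356 CPM in explant photoreceptors and 290 CPM in explant primary progenitors (ratio 1.22), and at 383 and 475 CPM at P0 (ratio 0.800). Ctcf had ratios of 1.08 and 0.893, Ckap5, a microtubule polymerase, 1.12 and 0.589, and Rangap1, which acts in nuclear transport and at kinetochores, 0.901 and 0.555, in explants and at P0. At the other end, Mki67 had a ratio of 0.0723 in explants and 0.216 at P0, and Top2a 0.112 and 0.266. The ratios of these strongly cycling members were thus higher at P0 than in explants. With the top 5% of cells by Scrublet doublet score left out, the P0 photoreceptor level was 30.2, and in the 71.4% of P0 photoreceptors with at most 2499 genes it was 15.8. Genes of primary progenitors were also found in P0 photoreceptors. The summed level of Lhx2, Ccnd1, Fgf15, Hes1 and Sox2, 5 genes settled on with their values known, was 11.4 to 19.7 UMIs per 10000 in P0 photoreceptors and 1.89 to 4.73 in explant photoreceptors, against 52.5 to 56.9 in P0 primary progenitors. Among the P0 photoreceptor samples it was highest in heterozygous replicate 1 and lowest in knockout replicate 2, which also had the highest and the lowest member level, 53.9 and 30.6. The wild-type sample had a higher sum of the 5 genes than knockout replicate 1 (14.9 against 12.8) but a lower member level (38.6 against 42.5). The part of progenitor RNA in the member level was not tested.

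At P14 the retained members made up nearly the whole signal. Anp32e alone gave 43.2% of the members' UMIs in rods, with 727 CPM (wild type), 704 and 741 CPM (heterozygous) and 694 and 790 CPM (knockout). Hmgb2 had 214 CPM, Ctcf 183 CPM, Tubb4b 112 CPM and Ckap5 103 CPM over all rods. Together these 5 genes held 79.4% of the members' UMIs. By contrast, 25 of the 49 listed members were under 2 CPM in rods, and 12 had 3 or fewer UMIs among the 8164830 UMIs of all rods. Cdk1 had 1 UMI and Ccnb1 2 UMIs in all rods. Hmmr and Anln, which anchors the cleavage furrow, had none, which at this depth allows up to 0.367 CPM (3 UMIs, counting error only).

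Muller glia, which keep some progenitor features, had another order. Tubb4b led with 311 CPM, followed by Anp32e with 194 CPM, Ckap5 with 158 CPM and Cbx5 with 108 CPM. Mki67 had 18 UMIs there (5.08 CPM) and 5 UMIs in rods (0.612 CPM). Cdc25c, the phosphatase that activates Cdk1, stood apart from the other entry genes, with 46 of its 54 P14 UMIs in bipolar cells (14.5 CPM), against 0.857 CPM in rods. Cdk1 and Ccnb1 had 2 UMIs each in the same bipolar cells.

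Single cells were compared after each was thinned to 3000 UMIs, and cells with fewer were left out. A P0 primary progenitor then had a median of 22 member UMIs (quartiles 9 and 59), a neurogenic progenitor 9 (5 and 47) and a photoreceptor 5 (3 and 8). Explant primary progenitors had a median of 9 (5 and 24) and neurogenic progenitors 7 (5 and 24.5). The upper quartile of both progenitor types lay far above the median, and the upper quartile of photoreceptors stayed near the median. A smaller tail was present in P0 photoreceptors, where 17.2% of cells had 10 or more member UMIs (13.4% to 22.8% over the samples). In rods the median was 5 (3 and 7). Thinning left out 15 of 2797 P0 and 225 of 1691 explant primary progenitors, 123 of 1142 P0 and 1075 of 1662 explant photoreceptors, and 830 of 2271 rods, so the explant photoreceptor and rod values describe the deeper cells.

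At least 1 Mki67 UMI was found in 46.5% of thinned P0 primary progenitors (median of 5 samples, range 44.7 to 48.5; 62.2% without thinning), in 31.0% of neurogenic progenitors and in 8.54% of photoreceptors. The values for Top2a were 53.0%, 37.0% and 12.1%. Median depths before thinning were 8584, 6704 and 4588 UMIs. Ccnb1, with 18.4%, 14.7% and 2.68%, was found in far fewer cells than Mki67. Hmgb2 was found in 94.2% of primary progenitors and 60.8% of photoreceptors, so its presence did not mark cells in G2 or mitosis. In rods, Mki67 was found in 3 of 1441 thinned cells and Cdc20 in 0 of 1441. The latter allows up to 0.208% of such thinned cells with a UMI, which is no limit on cells that express the gene, and all rods before thinning held 5 Cdc20 UMIs.

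Primary progenitors with and without an Mki67 UMI were then set side by side. Every one of the other 52 members was higher in the Mki67-positive cells in both libraries. The median ratio was 5.04 at P0 (range 1.31 to 9.10) and 6.45 in explants (range 1.34 to 13.5). At P0 the samples of the positive and negative cells did not overlap for 51 of the 52, and in explants for 35. The highest ratios were those of Ube2c (9.10) and Aurka (8.88) at P0 and of Cdca2 (13.5) and Nusap1 (11.3) in explants. Cbx5 (1.31 and 1.34), Ctcf (1.48 and 1.62) and Anp32e (1.82 and 1.53) had the lowest, at P0 and in explants. These are members that photoreceptors also kept in both libraries. Over all rods at P14, Anp32e stood at 729 CPM and Ctcf at 183 CPM. Cbx5 stood at only 28.2 CPM in rods, against 216 to 254 CPM in the samples of P0 primary progenitors. As the cells were split by a member, the ratios are a description. No share of all genes is given beside the counts without overlap, so they describe the members only.

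Outside the list, the genes whose level across the sums of cell types and samples was most like the mean of the members were Ccna2, Ccdc34, H2afx, Pbk, Prc1, Smc2, Knl1, Pclaf, Clspn and Myb, with a mean Pearson r of 0.977 to 0.963 over 35 explant and 21 P0 sums, among 7995 genes. Of these 10 genes, 5 stood on a list of other genes of G2 and mitosis. The sums of one sample share its library and depth, so the correlation describes these sums only.

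The next question was whether the agonist altered these genes in explant progenitors. In primary progenitors most of the group was higher at 500 than at 0 nM, and 3 genes passed the test. The summed level was 57.7 and 57.2 UMIs per 10000 in the 0 nM explants, 58.9 and 57.5 at 5 nM, 71.2 and 63.9 at 50 nM, and 67.4 and 77.0 at 500 nM. Both lower doses lay below both higher doses, and 500 nM overlapped 50 nM.

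Counts summed per explant were compared by the quasi-likelihood test of edgeR, adjusted after Benjamini and Hochberg over the 8514 genes tested, at a threshold of 0.05. Of the 52 members tested, 3 rose at 500 nM and none fell, against 0.317% of all genes called in either direction. At an unadjusted p under 0.05 there were 19 members, all higher. For unadjusted counts and for counts in alternative fits, here and below, no share of all genes is given. The shares printed belong to the adjusted threshold. The median log2 fold change of the members was 0.36 (48 positive, 4 negative), beside 0.006 for all genes.

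Mki67 had 146 and 166 CPM without agonist, 168 and 167 CPM under 5 nM, 204 and 202 CPM under 50 nM and 230 and 344 CPM under 500 nM. Each dose from 5 nM up lay above the one before it. The edgeR log2 fold change at 500 nM was 0.84 (SE 0.16, adjusted p = 0.00236).

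Cenpf, which gathers on the nuclear envelope and kinetochores in G2, had 240 and 222 CPM without agonist, 259 and 210 CPM under 5 nM, 292 and 289 CPM under 50 nM and 365 and 429 CPM under 500 nM. The lower doses overlapped, and the 500 nM explants lay above all others. Its edgeR log2 fold change was 0.73 (SE 0.14, adjusted p = 0.00236).

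Kif23, a kinesin of the central spindle in cytokinesis, had 30.5 and 19.7 CPM without agonist, 28.8 and 34.1 CPM under 5 nM, 59.5 and 37.2 CPM under 50 nM and 53.9 and 62.9 CPM under 500 nM. The higher doses overlapped each other and lay above the lower ones. Its edgeR log2 fold change was 1.12 (SE 0.26, adjusted p = 0.0372).

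**Figure D3:**
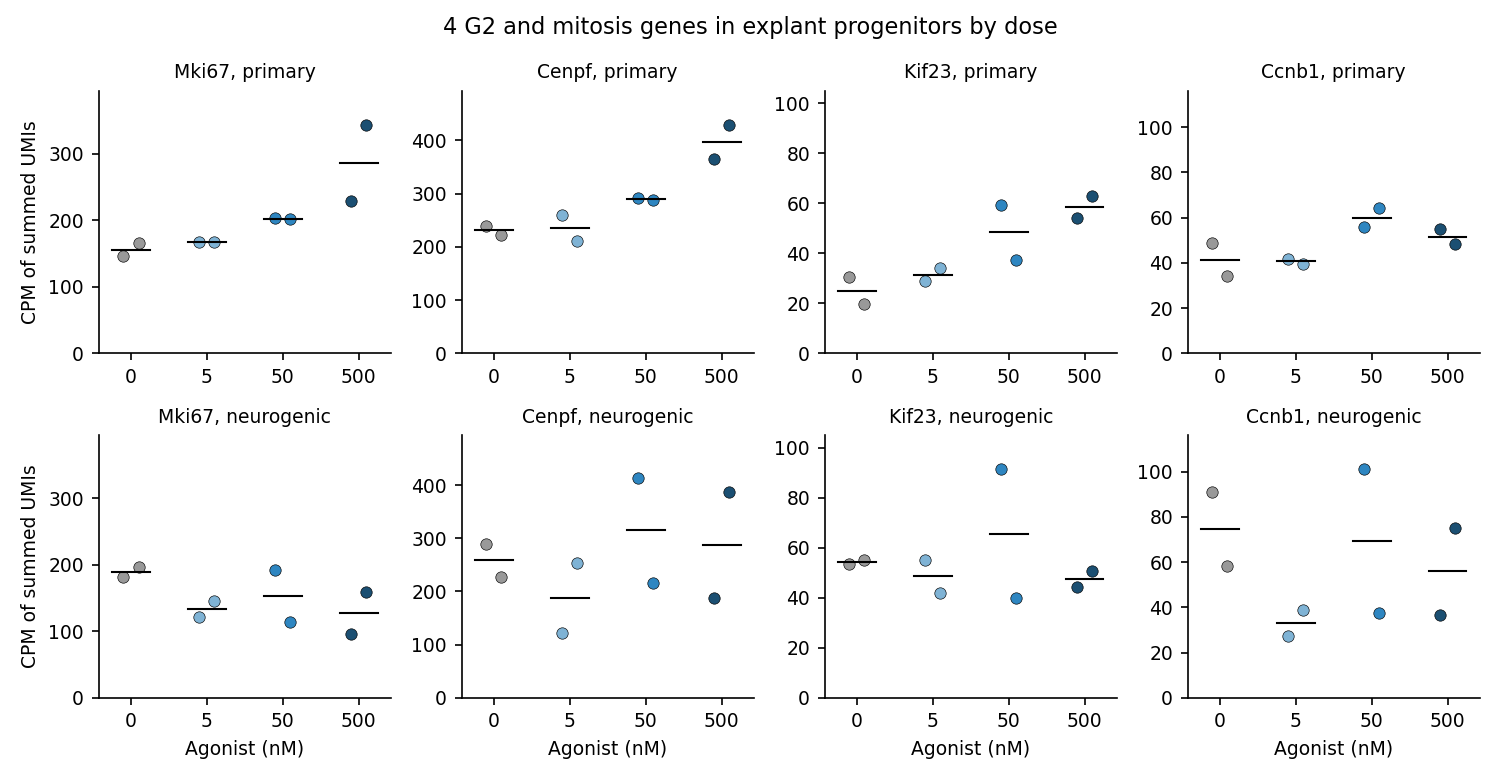
Mki67, Cenpf, Kif23 and Ccnb1 in primary (upper row) and neurogenic (lower row) progenitors of the explants. Each point is 1 explant (CPM of summed UMIs, vertical axes from 0), the line is the mean of 2 explants, and the horizontal axis gives the agonist dose in nM. In primary progenitors the 500 nM points of Mki67 and Cenpf lie above every 0 nM point, and in neurogenic progenitors the Mki67 points at 500 nM lie below those at 0 nM.

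The largest differences that did not pass were those of Nek2, a centrosome kinase, with 7.92 and 7.16 CPM without agonist against 24.8 and 30.8 CPM under 500 nM (edgeR log2 fold change 1.82, adjusted p = 0.0619), Cdca2, a chromatin phosphatase subunit (1.48, adjusted p = 0.0707), and the kinetochore gene Ndc80 (1.27, adjusted p = 0.371). Cdca2 had 10.2 and 12.5 CPM without agonist and 29.1 and 34.8 CPM under 500 nM, and Ndc80 had 9.05 and 8.94 CPM against 23.7 and 22.1 CPM. The values without agonist rest on 7 and 4 UMIs for Nek2, 9 and 7 for Cdca2, and 8 and 5 for Ndc80. The 5 nM explants were not uniformly low for these genes, with 23.6 and 8.53 CPM for Nek2 and 20.9 and 19.5 CPM for Ndc80. By role, all members tested were positive among the mitotic kinase, kinetochore, chromosome, anaphase-promoting complex and nuclear envelope genes, with medians of 0.54, 0.42, 0.43, 0.55 and 0.23. Cytokinesis genes had the highest median, 0.79 (3 of 4 positive), and spindle genes had 0.36 (10 of 12 positive). Entry into mitosis was the lowest group, with a median of 0.20 (6 of 7 positive). Ccnb1 had 48.6 and 34.0 CPM without agonist, 41.9 and 39.6 CPM under 5 nM, 55.9 and 64.1 CPM under 50 nM and 55.0 and 48.2 CPM under 500 nM, and the extreme doses overlapped. Cdc20 had 66.7 and 66.2, 94.2 and 57.9, 64.9 and 70.6, and 80.9 and 69.6 CPM in that order, with the highest value under 5 nM. Top2a had 235 and 166, 175 and 248, 361 and 253, and 231 and 400 CPM, and its extreme doses overlapped as well. Ube2c, at 105 and 131, 136 and 100, 155 and 171, and 141 and 232 CPM, did not overlap between 0 and 500 nM. The levels of Hmgb2 were 1324 and 1334, 1348 and 1361, 1548 and 1375, and 1430 and 1452 CPM, also without overlap between the extreme doses but with a smaller relative difference. Among 41 other genes of G2 and mitosis tested, Esco2, an acetyltransferase of cohesin, and Ccna2, the S and G2 cyclin, also rose (1.21 and 0.83 on the log2 scale, adjusted p of 0.00190 and 0.0101 in edgeR).

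An Mki67 UMI was found in 23.2% and 22.0% of the thinned primary progenitors without agonist, and with increasing dose in 22.5% and 24.2%, 31.5% and 25.7%, and 29.0% and 43.5%. Every explant at 50 or 500 nM lay above every explant at 0 or 5 nM. The second 500 nM explant was the highest for the share, for Mki67 and for the summed level.

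Other features also separated the 500 nM from the 0 nM explants. The share of primary progenitors with a UMI of Xist, which female cells express, was 60.5% and 59.8% at 0 nM and 98.5% and 97.6% at 500 nM. It was 97.6% and 62.8% at 5 nM, and 57.5% and 56.0% at 50 nM. Among Xist-positive cells alone 4 members rose, with a median of 0.49. The second 500 nM explant held 3 primary progenitors with 10 or more lens crystallin UMIs and one 50 nM explant held 1, and without such cells 6 members rose. Both of these alternatives were added once the data had been examined. No share of all genes is given beside the counts of members called in this paragraph, so they describe the members only. Leaving out the top 5% of cells by Scrublet score kept 190 of 195 and 120 of 122 primary progenitors at 0 nM. At 500 nM it kept 194 of 203 and 300 of 369. The summed level in the cells kept was 58.2 and 57.0 UMIs per 10000 at 0 nM and 67.8 and 76.9 at 500 nM. The call counts depended on single explants. With either 0 nM explant left out 0 members passed, with 13 and 18 at an unadjusted p under 0.05, and without the first 500 nM explant 13 passed. Without the second 500 nM explant 2 passed, and Mki67 then had a log2 fold change of 0.55 and did not pass. With DESeq2's Wald test 0 members passed and 12 had an unadjusted p under 0.05. The median stayed at 0.26 or above in all of these fits.

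Neurogenic progenitors of the same explants did not show this pattern. Their summed level was 78.3 and 76.6 UMIs per 10000 at 0 nM, 45.3 and 66.3 at 5 nM, 78.6 and 58.2 at 50 nM, and 58.3 and 79.6 at 500 nM. The 500 nM explants lay on either side of the 0 nM ones, and these sums held as few as 38 cells. Of 45 members tested, 0 passed edgeR's test at 500 against 0 nM, against 0.0988% of all 6072 genes called. At an unadjusted p under 0.05 there were 2, both lower, and with DESeq2 0 passed and 0 had an unadjusted p under 0.05. The median was -0.21 (9 positive, 36 negative), and it was -0.06 without the first and -0.46 without the second 500 nM explant. Mki67 had 182 and 196 CPM without agonist, 121 and 145 CPM under 5 nM, 192 and 115 CPM under 50 nM and 96.7 and 159 CPM under 500 nM. Its 500 nM explants lay below its 0 nM explants. Kif20b, Ect2 and Nek2 had the most negative differences among members whose extreme doses did not overlap (-0.84, -0.77 and -0.77 on the log2 scale, none past the test). Kif20b, a kinesin of late mitosis, had 39.6 and 31.0 CPM without agonist against 18.3 and 22.1 CPM under 500 nM, and Ect2, which triggers the cleavage furrow, 31.7 and 34.4 CPM against 13.1 and 24.4 CPM. These values rest on 20 and 9 against 7 and 10 UMIs for Kif20b and 16 and 10 against 5 and 11 for Ect2. For Nek2 they rest on 22 and 12 against 7 and 14 UMIs. With 1 explant left out the log2 fold change was -0.98 to -0.61 for Kif20b, -1.31 to -0.44 for Ect2 and -1.21 to -0.48 for Nek2.

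The difference between the progenitor types was tested itself, with the explant as a block, in a fit added once the data had been examined. Mki67 alone of 50 members passed edgeR's test, with a dose effect 1.40 higher on the log2 scale in primary than in neurogenic progenitors (SE 0.24, adjusted p = 0.000684), against 0.13% of all 7690 genes called. Another 19 members had an unadjusted p under 0.05 in the same direction, and the median over the members was 0.56 (45 positive). Without the first 0 nM explant 0 members passed, and Mki67 stood at 1.34. In the neurogenic progenitors with at least 1 Sstr2 UMI, 25 members could be tested in sums of 12 to 36 cells, and 0 passed in edgeR or DESeq2, with 0 at an unadjusted p under 0.05 in edgeR. Of all 2007 genes tested there, 0% were called. The median there was -0.02, and its sign turned with single explants left out (0.23 without the first and -0.20 without the second 0 nM explant, 0.14 without the second 500 nM explant).

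**Figure D4:**
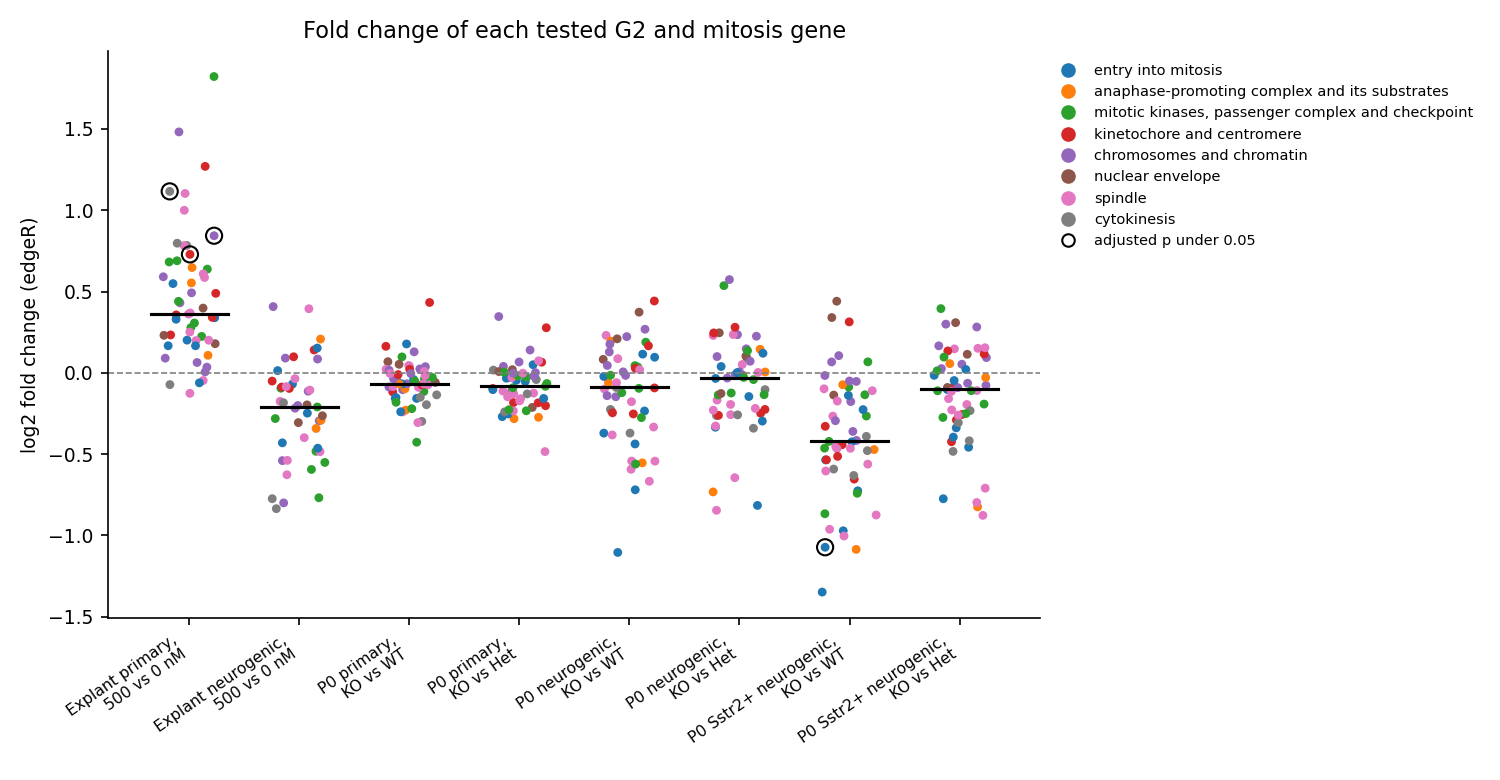
log2 fold change (edgeR, vertical axis) of every member tested in 8 comparisons, coloured by role. Each point is 1 gene, the line is the median, and a ring marks an adjusted p under 0.05. The median lies at 0.36 for primary progenitors of explants at 500 against 0 nM and at -0.42 for P0 Sstr2-positive neurogenic progenitors of knockout against wild type.

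The last question was whether the members differed with Sstr2 genotype. Wild type was 1 sample, so that in every comparison with it the spread was taken from the heterozygous and knockout samples. In P0 primary progenitors the samples were close to one another. The summed level was 147 UMIs per 10000 (wild type), 154 and 147 (heterozygous) and 152 and 137 (knockout). The knockout samples spanned nearly the whole range. In edgeR, 0 of 53 members passed for knockout against wild type, where 0.0251% of 11939 genes were called, and 0 passed for knockout against heterozygous, where 0.00838% were called. At an unadjusted p under 0.05 there were 3 (all lower) and 9 (8 lower). The medians were -0.07 and -0.08. With the second knockout sample left out the first median was 0.015, and with the first left out -0.15. DESeq2 called 0 members in both comparisons, with 0 and 2 at an unadjusted p under 0.05. Here and in the other P0 cells, these comparisons share the knockout samples. Aurka had the most negative difference from wild type without overlap (-0.43, not past the test), and Hjurp, which places Cenpa at centromeres, the most positive (0.43, not past the test). Hjurp had 406 UMIs (wild type), 358 and 558 (heterozygous) and 446 and 528 (knockout), so the heterozygous samples held its lowest and highest counts. In P0 amacrine cells, which no longer divide, Hjurp had 11.5 CPM (wild type), 7.69 and 22.0 CPM (heterozygous) and 27.1 and 23.1 CPM (knockout). Psrc1, a spindle protein, had the most negative difference from the heterozygous samples, with 30.7 and 29.5 CPM there and 21.9 and 21.3 CPM in the knockout samples (-0.48, not past the test).

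In P0 neurogenic progenitors the summed level was 118 UMIs per 10000 (wild type), 109 and 120 (heterozygous) and 116 and 113 (knockout), which overlapped. In edgeR 0 of 53 members passed against wild type (0.0334% of 8984 genes called) or against heterozygous (0.0111% called), with 6 and 8 at an unadjusted p under 0.05 and medians of -0.09 and -0.03. DESeq2 called 0 members in both, with 1 and 1 at an unadjusted p under 0.05. The 4 cytokinesis genes were negative in both comparisons, and the 9 chromosome and chromatin genes had medians of 0.05 and 0.10. Cdc20 was lowest in the knockout samples, with 91.8 and 60.5 CPM, against 120 and 134 CPM (heterozygous) and 111 CPM (wild type). Ccnb1 had 145 CPM (wild type), 114 and 111 CPM (heterozygous) and 71.1 and 106 CPM (knockout), again lowest in the knockout samples.

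Sstr2-positive neurogenic progenitors, those with at least 1 Sstr2 UMI, had a higher level of the group than the other neurogenic progenitors. At P0 it was higher in 5 of 5 samples (medians 176 and 53.7 UMIs per 10000, ratio 2.94 to 3.55), and in explants in 8 of 8 (medians 101 and 48.8, ratio 1.08 to 2.58). After thinning to 3000 UMIs, cells were called Sstr2-positive anew on the thinned counts. The level was then higher in 5 of 5 and 7 of 8 samples, with median ratios of 2.31 and 1.78. The cells with an Sstr2 UMI were also deeper at P0, with medians of 8394 to 9944 UMIs against 6145 to 6631. The Sstr2-positive share of P0 neurogenic progenitors was 30.9% (wild type), 43.1% and 45.8% (heterozygous) and 40.0% and 55.5% (knockout), against 0.794% to 2.85% of photoreceptors in the same samples. The gene that selects these cells thus itself moved with genotype, and what part this has in the comparisons that follow was not tested.

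Within the Sstr2-positive cells the summed level was 201 UMIs per 10000 (wild type), 161 and 180 (heterozygous) and 176 and 149 (knockout), in sums of 46 to 71 cells. The single wild-type sample was the highest, and the other genotypes overlapped. After thinning, cells were called Sstr2-positive anew on the thinned counts, which left 25 (wild type), 31 and 50 (heterozygous) and 43 and 51 (knockout). In this smaller set the values were 153, 170 and 151, and 158 and 138, and the wild type did not stand apart. The 2 sets do not hold the same cells, and the fits below used the cells called before thinning. In edgeR, 1 of 53 members passed the test, lower in knockout than in wild type, where 0.0687% of 7281 genes were called, 20 were lower at an unadjusted p under 0.05 and none higher, and the median was -0.42 (47 negative), beside 0.008 for all genes. The share of 0.0687% belongs to the adjusted threshold, and no share of all genes is given beside the unadjusted count. The wild-type arm was 1 sample of 46 cells with no spread of its own, and the median was -0.52 without the first and -0.26 without the second knockout sample.

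The gene past the threshold was Ccnb1, with 282 CPM (wild type), 186 CPM in each heterozygous sample and 125 and 141 CPM (knockout) (edgeR log2 fold change -1.07, SE 0.19, adjusted p = 0.0255). The genotypes did not overlap. Cdc20 had 250, 192 and 228, and 164 and 79.9 CPM in the same order (-1.09, adjusted p = 0.286), with -1.65 without the first and -0.60 without the second knockout sample. Cdc25c had 40.6, 20.7 and 33.2, and 22.2 and 10.8 CPM (-1.35, adjusted p = 0.771), and its heterozygous and knockout samples overlapped. These values rest on 18, 11 and 22, and 11 and 7 UMIs, and the log2 fold change was -1.90 to -0.85 with 1 sample left out. All 8 entry genes, all 12 spindle genes and all 4 cytokinesis genes were negative, with medians of -0.63, -0.47 and -0.54. The chromosome and chromatin genes had a median of -0.05, and 2 of the 3 nuclear envelope genes were positive.

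**Figure D5:**
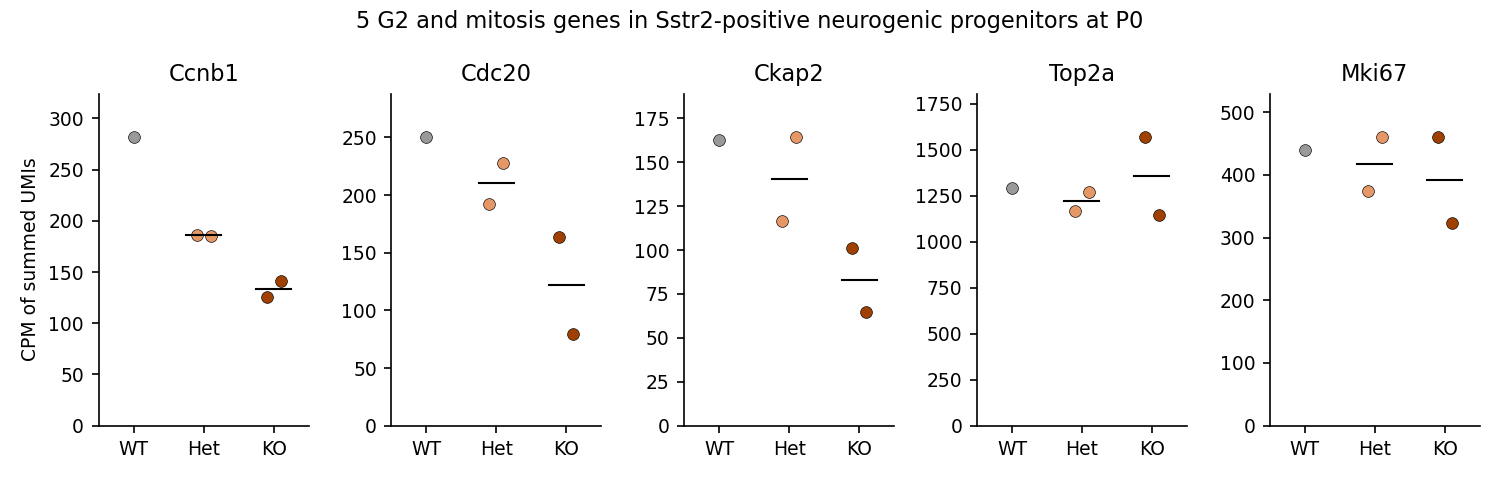
Ccnb1, Cdc20, Ckap2, Top2a and Mki67 in Sstr2-positive neurogenic progenitors at P0 (CPM of summed UMIs, vertical axes from 0) in wild-type (WT), heterozygous (Het) and knockout (KO) samples. Each point is 1 sample and the line is the mean of 2 samples. Ccnb1 and Cdc20 are lowest in both knockout samples, while Top2a and Mki67 overlap between genotypes.

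Top2a, in contrast, had 1293 CPM (wild type), 1168 and 1271 CPM (heterozygous) and 1570 and 1143 CPM (knockout), and Mki67 440, 375 and 460, and 461 and 323 CPM. Against the heterozygous samples 0 members passed edgeR's test, with 0.0137% of genes called, 5 at an unadjusted p under 0.05 (4 lower) and a median of -0.10. That median was -0.26 and 0.0041 without the first and the second knockout sample, and -0.21 and 0.011 without the first and the second heterozygous sample. DESeq2 called 0 members in either comparison, with 7 at an unadjusted p under 0.05 against wild type and 1 against heterozygous. With the first or the second heterozygous sample left out of the fit, 8 or 2 members passed against wild type. The call for Ccnb1 rests on 1 wild-type sample. It was lost when either knockout sample was left out (log2 fold changes of -1.001 and -1.16) and when the top 5% of cells by Scrublet score were left out (-0.86). Pttg1, the securin that the anaphase-promoting complex destroys and a gene outside the list, was also lower and passed (-2.01, adjusted p = 0.0255 in edgeR). That call rests on the same single wild-type sample, and its values in the alternative fits are not given here.

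In P14 rods 19 of the 49 listed members had enough counts to be tested. Of these 0 passed edgeR's test for knockout against heterozygous, where 0.0106% of 9474 genes were called, and DESeq2 called 0. The condensin subunit Ncapd2 alone had an unadjusted p under 0.05, with 8.37 and 4.81 CPM (heterozygous) and 2.53 and 2.08 CPM (knockout), a log2 difference of -1.62. These values rest on 17 and 4 UMIs, and on 3 UMIs in each knockout sample. The wild-type sample had 4.12 CPM, and the median over the 19 was 0.015 (-0.056 to 0.084 with 1 sample left out).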

How the data were processed

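The authors ran Cell Ranger (3.1.0, mm10 and Seurat 3 in the submitters' processing notes), assigned cells to samples with deMULTIplex and clustered them after SCTransform. The deposited tables hold raw UMI counts per gene and cell, with the sample and cell type the authors gave each cell. The deposited SCT-corrected values were not used. The members and lists were chosen with earlier results of these data known.

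For each sample, the UMIs of the cells of a type were added up, and these sums were compared in R 4.3.3 by the quasi-likelihood test of edgeR 4.0.16 (TMM, filterByExpr, p-values adjusted after Benjamini and Hochberg over all genes tested), with all samples of a library in 1 fit. DESeq2 1.42.0 was an alternative. The edgeR step was run on simulated data with larger changes than those of the members that passed. That run does not measure power for changes of their size. Thinning drew 3000 UMIs per cell without replacement. Levels by type used sums of at least 20 cells, and the Sstr2-positive sums had no such limit. Scrublet in scanpy 1.11.5 called 115 cells (2.05%) in explants but 7 (0.12%) at P0 and 2 (0.06%) at P14. In the retina libraries this was taken as a failed call, and no cell was removed.

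Genes named with values per sample were 15 chosen members, those past a threshold and the largest differences without overlap in each direction. Others are named by role. Samples held 1281682 to 4237324 UMIs in explants, 8822880 to 10793649 at P0 and 1266730 to 5886669 at P14. Intervals and floors cover counting error only. Python 3.11.15, numpy 2.4.6, pandas 2.3.3, scipy 1.17.1 and matplotlib 3.10.9 were used. The progenitor marker sum leaves out 1 gene that is not reported here.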

Additional observations from a re-analysis of the deposited data

Results flagged for a closer look

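Mki67 was marked because its response to 500 nM agonist differed between the progenitor types of the same explants. The log2 fold change against 0 nM was 1.40 higher in primary than in neurogenic progenitors (SE 0.24, adjusted p = 0.000684 by edgeR's test of the difference). It was 0.84 in primary and -0.54 in neurogenic progenitors, and in each type the 0 and 500 nM explants did not overlap. The difference stayed between 1.33 and 1.51 with any 1 explant left out, and without the first 0 nM explant it did not pass the threshold. In Xist-positive cells alone the primary progenitor value was 0.90 and passed the threshold.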

How the results depend on the processing

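No paired analysis was possible because the labels give no replicate numbers, and replicates were named in barcode order only. For 500 against 0 nM in explant primary progenitors, 3 members passed in the fit reported, 0 with DESeq2, 8 with no filter on low counts, 6 without lens cells, 1 in cells well under the upper limit on genes and 0 to 13 with 1 explant left out. The median log2 fold change was then 0.49 in Xist-positive cells, 0.52 in cells well under the limit on genes and 0.26 to 0.49 with 1 explant left out. The cause of these shifts was not tested. Beside the counts in alternative fits, here and in the next paragraph, no share of all genes is given.

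For P0 primary progenitors, leaving out 1 sample gave medians of -0.15 to 0.015 against wild type and -0.17 to -0.0033 against heterozygous. For P0 neurogenic progenitors it gave 0 to 1 members against either genotype, and medians of -0.14 to 0.036 against heterozygous. For P0 Sstr2-positive cells against wild type, 1 member passed in the fit reported, 0 with DESeq2, 6 with no filter, 0 with the top 5% of Scrublet scores left out and 0 to 8 with 1 sample left out. Against heterozygous it was 2 with no filter and 0 to 2 with 1 sample left out. For the difference between progenitor types it was 0 to 2, with medians of 0.44 to 0.76. With 1 sample left, a group was assumed to vary like the others.

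Without Hmgb2, Tubb4b, Cbx5, Tmpo and Anp32e the summed level per 10000 was 35.8 in explant primary progenitors, 8.95 in explant photoreceptors, 91.9 in P0 primary progenitors, 23.4 in P0 photoreceptors and 5.39 in P14 rods. As a mean over cells it was 124.0 in P0 primary progenitors and 26.5 in P0 photoreceptors. In cells with at most 2499 genes it was 56.3 and 15.8, and with the top Scrublet scores left out P0 photoreceptors had 30.2. Mki67 was found in 62.2% of P0 primary progenitors without thinning and in 39.4% at 2000 UMIs. By Spearman's rho 3 of the top 10 like genes were on the other list, against 5 by Pearson's r.

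Among single genes, the sign turned for Anp32e in explant Sstr2-positive cells (0.026 with the top Scrublet scores left out, -0.073 to 0.0028 with 1 explant left out) and for Gtse1 in P0 primary progenitors against wild type (-0.014 to 0.36 with 1 sample left out).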
